A study of Rattus norvegicus with 2 samples.

Results

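Heterotrimeric G proteins carry the signal of a bound receptor into the cell, and RGS proteins (regulators of G protein signalling) end it. A G protein has an alpha subunit, which binds guanine nucleotides, and a tightly joined pair of a beta and a gamma subunit. An activated receptor exchanges GDP for GTP on the alpha subunit, the alpha subunit and the beta-gamma pair then act on their effectors, and an RGS protein speeds the hydrolysis of GTP. In sympathetic neurons these proteins connect muscarinic, adrenergic, peptide and purinergic receptors to calcium channels, to the M current and to adenylyl cyclase.

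The genes described here were taken by symbol from the deposited expression values. They are all genes named as an alpha subunit (Gna), a beta subunit (Gnb1 to Gnb5), a gamma subunit (Gng) or a numbered RGS gene. This gave 54 of 25395 genes, namely 16 G alpha, 5 G beta, 13 G gamma and 20 RGS genes. The values come from dissociated stellate ganglia, which send sympathetic fibres to the heart, of rats 5 to 6 weeks of age. There is 1 library from normotensive Wistar rats and 1 from prehypertensive SHRs (spontaneously hypertensive rats), neither of them treated, and the study states that the animals were male. The labels do not say how many animals each library holds. The SHR is an inbred strain and Wistar an outbred stock, so the comparison takes in every difference of genetic background between them.

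Each value is a mean over the sympathetic neuron cluster of a library, converted here to a mean per 10000 counts of a cell. Each strain has 1 library, so no difference below has a test, an error or a replicate check. The number of neurons and the counts per neuron are unknown, and so is the detection limit. The libraries count the 3' ends of transcripts, so a longer transcript is not counted more often. Levels of different genes are compared on the scale of the mean per 10000. How fully the transcripts of each gene were captured and assigned is unknown, so such comparisons between genes are approximate. A difference is given by 2 measures. One is the percent change of the mean, and the other is the log2 difference, which is log2 of 1 plus the mean in SHR minus the same in Wistar. A gene is called past the fold where the ratio of its 2 means is at least 1.5 and its average over both libraries is at least 0.1 per 10000.

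All 12 sympathetic neuron markers on the list used were above this minimum. Their summed mean was 152 per 10000 in Wistar and 168 per 10000 in SHR, a sum carried mostly by Prph, Uchl1 and Snap25. Of the 12, 5 were higher in SHR and 7 lower. Th was at 10.2 and 10.1 per 10000, while Dbh (-37.6%) and Chga (-50.1%) were past the fold in the direction of Wistar and Hand2 (80.5%) in that of SHR, and Slc18a2 differed by -32.1%. The markers of 6 other cell types summed to 6.47 per 10000 in Wistar and 2.16 per 10000 in SHR. Glial markers made up 3.10 and 1.22 per 10000 of these sums, fibroblast markers 1.84 and 0.353, and immune markers 1.23 and 0.394. Of the 36 markers of other cell types with a line, 28 were lower in SHR and 5 higher, and Cd3e, Alas2 and Hba-a3 were listed at 0 in both libraries. Among all 7621 genes past the minimum, 5.22% were past the fold in the direction of SHR and 26.5% in the direction of Wistar. In any amount, 34.4% were higher in SHR and 65.6% were lower, and the median gene differed by -0.05 on the log2 scale.

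Of the 54 genes, 25 passed the minimum of 0.1 per 10000. Of the other 29, 6 were listed at 0 in both libraries and 3 were listed above 0 in Wistar alone. Among the 25, 17 had a higher mean in SHR and 8 a lower one, beside 34.4% and 65.6% of all genes past the minimum. The median of the 25 was 0.09 on the log2 scale, beside -0.05. Past the fold there were 3 higher genes, Rgs10, Gnb1 and Gng3, and 3 lower ones, Gnb3, Rgs6 and Rgs9. Of all genes, 5.22% and 26.5% were past it. Gng10 with a ratio of 1.498, Gnas with 1.494 and Rgs17 with 1.474 lay just inside the fold. The ratio of the median gene was 0.863, a log2 shift of -0.21. Relative to that gene, 9 of the 25 were past the fold in the direction of SHR and 1 in the direction of Wistar, beside 13.2% and 17.3% of all genes past the minimum. Gnb2, 1 of the 9, ranked 182 by ratio among the 484 genes with an average of at least 3 per 10000. At least 182 of those 484 were thus past this fold in the direction of SHR, a larger share than over all genes. Nothing particular to the members is read from these counts.

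**Figure D1:**
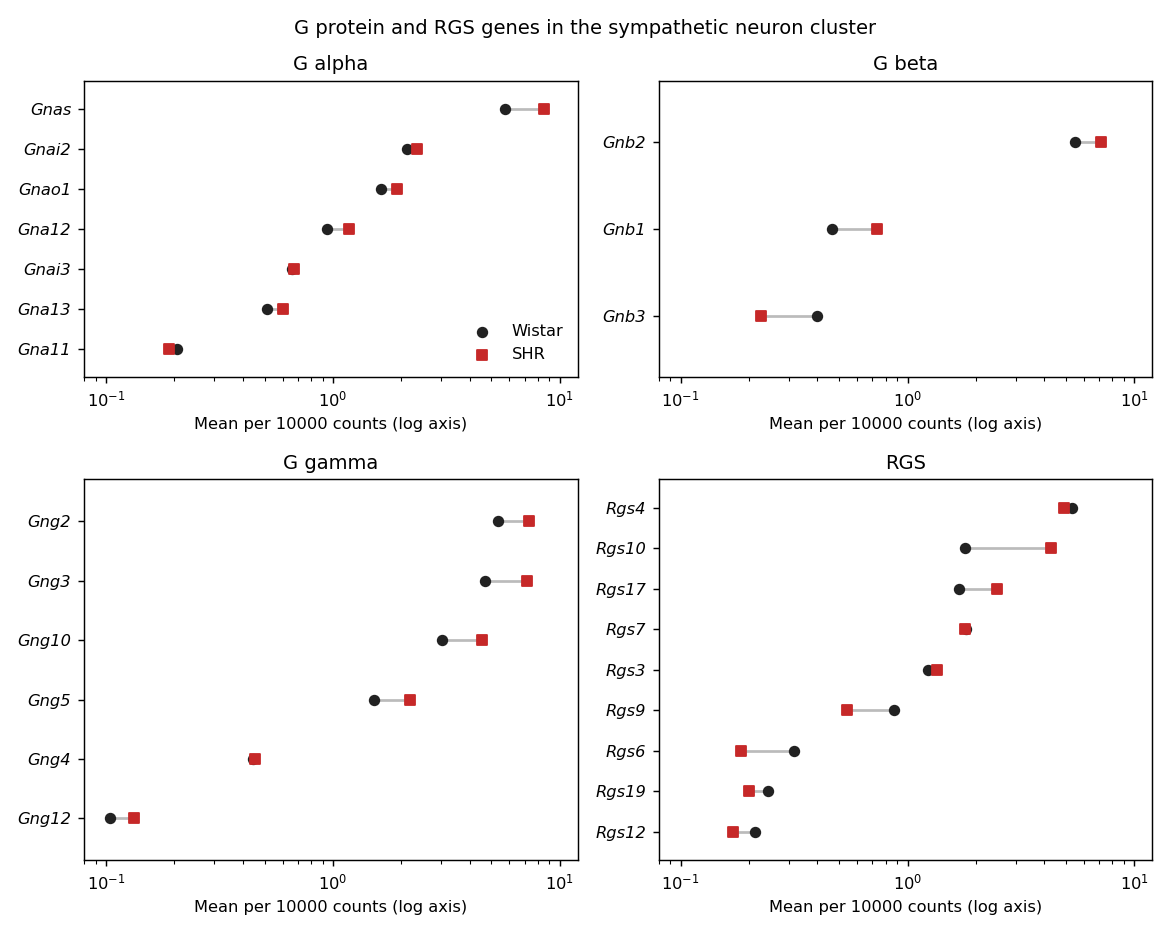
Mean per 10000 counts (log axis) of the 25 genes past the minimum in the Wistar library (black circles) and the SHR library (red squares), in 1 panel per class, with 1 value per library and so no error bars. The 6 G gamma genes all lie further right in SHR, and the widest gap of the RGS panel is that of Rgs10, from 1.79 to 4.28.

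To show what lies upstream of the genes that differ most, 4 promoters are given. They belong to the 2 genes with the largest positive and the 2 with the largest negative log2 difference among members past the minimum that have 1 entry in the RefSeq table of build GRCr8. Each run holds the 250 bases before the annotated start, 5′ to 3′ on the strand of the gene. Capitals mark the GC box, the letters GGGCGG read on either strand, which the factor Sp1 is known to bind. The deposited values were made on build Rnor_6.0, so the positions are those of the promoter table and not of the expression values.
Rgs10, chr1:192418078-192418327, minus strand: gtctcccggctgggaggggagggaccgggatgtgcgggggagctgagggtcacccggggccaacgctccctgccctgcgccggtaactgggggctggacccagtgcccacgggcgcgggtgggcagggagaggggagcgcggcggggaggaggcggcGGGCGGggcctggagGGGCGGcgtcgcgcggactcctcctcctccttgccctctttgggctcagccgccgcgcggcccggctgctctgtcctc
Gng3, chr1:215162719-215162968, minus strand: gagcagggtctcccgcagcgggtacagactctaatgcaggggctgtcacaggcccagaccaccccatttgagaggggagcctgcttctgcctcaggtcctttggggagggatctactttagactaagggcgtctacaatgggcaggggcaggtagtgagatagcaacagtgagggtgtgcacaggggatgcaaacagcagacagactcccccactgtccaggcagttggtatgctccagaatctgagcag
Rgs9, chr10:94770388-94770637, minus strand: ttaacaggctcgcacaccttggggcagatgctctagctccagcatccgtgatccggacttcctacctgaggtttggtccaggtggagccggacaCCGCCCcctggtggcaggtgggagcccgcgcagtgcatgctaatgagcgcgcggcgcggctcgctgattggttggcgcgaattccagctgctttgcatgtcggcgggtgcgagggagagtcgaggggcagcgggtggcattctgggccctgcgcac
Rgs6, chr6:107996245-107996494, plus strand: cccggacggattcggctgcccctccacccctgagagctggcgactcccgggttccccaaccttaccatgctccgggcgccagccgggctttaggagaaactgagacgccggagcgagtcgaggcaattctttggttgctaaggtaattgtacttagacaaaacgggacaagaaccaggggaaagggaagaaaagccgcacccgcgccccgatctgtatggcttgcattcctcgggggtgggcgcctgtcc

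Rgs10 holds 26 CpG dinucleotides in these 250 bases, with a GC content of 77.6% and 2 GC boxes. Rgs9 holds 21 CpG and 1 GC box, and Rgs6 holds 19 CpG and 0 GC boxes. Gng3 stands apart with 3 CpG and 0 GC boxes. The median over all 33469 promoters of the table was 5 CpG, and the median over the 43 of the 54 genes with 1 entry was 12. The 33469 were not limited to symbols with 1 entry, so the sets compared here were not chosen alike. A GC box was found in 22 of those 43 promoters, beside 30.5% of all promoters. The letters TGACG, the core of the cyclic AMP response element, were found in 10 of the 43 and in 18.2% of all promoters on either strand. The letters TGANTCA of the AP-1 site were in 4 of the 43 and in 6.34% of all, and TATAAA was in 5 of the 43 and in 12.9% of all. None of these 3 motifs was in the 4 promoters shown.

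Among the G alpha genes the stimulatory subunit Gnas, which activates adenylyl cyclase, was the most abundant. Of the 7 past the minimum, 6 were higher in SHR, beside 34.4% of all genes. The median log2 difference of the 7 was 0.11, and 0 were past the fold in either direction, beside 5.22% higher and 26.5% lower of all genes. The 16 G alpha genes summed to 11.98 per 10000 in Wistar and 15.7 in SHR, a change of 30.8%. The mean of Gnas was 5.72 per 10000 in Wistar against 8.55 in SHR, and it ranked 199 and 130 among all genes. Its percent change was 49.4% and its log2 difference 0.51. Without Gnas, the other G alpha genes summed to 6.25 per 10000 in Wistar and 7.11 in SHR, a change of 13.8%. The share of the G alpha sum held by Gnas was 47.8% in Wistar and 54.6% in SHR.

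Another line of the tables is named Gnas.1, the name that is given when a symbol occurs again. The rule on symbols does not take it, and it was noticed only after the values were seen. It stood at 12.4 per 10000 in Wistar against 18.3 in SHR, a change of 47.1%, and it ranked 66 and 45 among all genes. It stood at 2.17 times the Gnas line in Wistar and at 2.14 times in SHR. Gnas is a complex locus with several first exons, and the files do not say which transcripts each line counts, so the level of Gnas is uncertain. With both lines added, the G alpha sum was 24.4 per 10000 in Wistar against 33.9 in SHR, a change of 39.1%, and the Gnas lines held 74.4% and 79.0% of it.

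The inhibitory Gi/o subunits couple the autoreceptors of sympathetic neurons to calcium channels, largely through the beta-gamma pair they release. They summed to 4.51 per 10000 in Wistar and 5.06 in SHR, a change of 12.3%. Gnai2 was the most abundant, at 2.12 per 10000 in Wistar against 2.36 in SHR. Gnao1, the alpha subunit most typical of neurons, was at 1.63 per 10000 in Wistar against 1.91 in SHR, a log2 difference of 0.15. Gnai3 was at 0.661 per 10000 in Wistar against 0.671 in SHR, a change of 1.48%. On the G alpha sum without Gnas.1, the Gi/o share was 37.6% in Wistar and 32.3% in SHR, as the share of Gnas was larger there. With Gnas.1 in the sum, the Gi/o share would be smaller in both libraries. Under the minimum, Gnai1 was at 0.0403 and 0.0653 per 10000. Gnaz, whose product hydrolyses GTP slowly, was at 0.0578 and 0.0561.

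Gna12 and Gna13, the subunits of the G12/13 family, were at 0.937 and 0.513 per 10000 in Wistar. In SHR they were at 1.17 and 0.605, changes of 25.2% and 18.0%. The Gq/11 subunits, which activate phospholipase C and through it close M channels, had low means. Gna11 was at 0.205 per 10000 in Wistar against 0.189 in SHR, a change of -8.05%, and was the 1 G alpha gene past the minimum with a lower mean in SHR. Its ratio to that of the median gene was 1.07, so its direction depends on the scaling. Gnaq was at 0.0524 per 10000 in Wistar and 0.0518 in SHR. The 4 Gq/11 genes together held 2.34% of the G alpha sum without Gnas.1 in Wistar and 1.72% in SHR. Gna14 was at 0.0120 and 0.0268 per 10000 and Gna15, a subunit of blood cells, at 0.0109 and 0.00171. Gnal, the olfactory relative of Gnas, was at 0.0135 and 0.00674. The transducins Gnat1 and Gnat2 and the taste cell subunit Gnat3 were listed at 0 in both libraries.

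**Figure D2:**
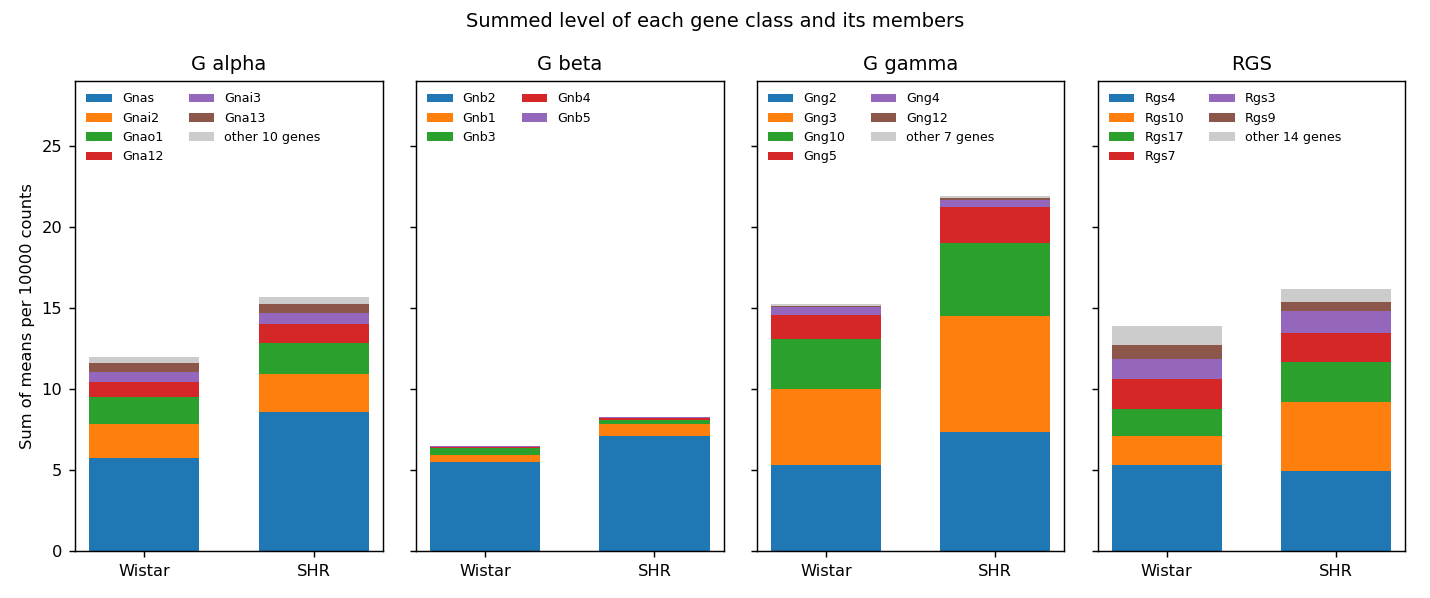
Stacked bars of the summed mean per 10000 counts of each class in the Wistar and the SHR library, starting at 0, with the 6 most abundant genes of a class in colour and the others in grey. The bars are taller in SHR in all 4 classes, and Rgs10 takes 26.5% of the RGS bar in SHR against 12.9% in Wistar.

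The G beta class was held almost entirely by Gnb2, at 5.46 per 10000 in Wistar against 7.12 in SHR, a log2 difference of 0.33. Gnb2 made up 84.1% of the G beta sum in Wistar and 86.4% in SHR. The sum of the 5 genes was 6.50 per 10000 in Wistar against 8.24 in SHR, a change of 26.8%, and the 3 genes past the minimum had a median of 0.24 on the log2 scale. Gnb1, the close relative of Gnb2, was at 0.467 per 10000 in Wistar against 0.733 in SHR, a change of 57.0% that was past the fold. Gnb3 went the other way, at 0.401 per 10000 in Wistar against 0.225 in SHR, a change of -43.8%, also past the fold. Gnb3 is best known from cone photoreceptors. With the median gene as reference the ratio of Gnb3 was 0.651, so it was past the fold on that scale too, and Gnb1 and Gnb2 were past it in the direction of SHR. Gnb4 was at 0.0954 per 10000 in Wistar against 0.0988 in SHR, and Gnb5, which joins R7 RGS proteins in place of a gamma subunit, at 0.0710 and 0.0635.

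All 6 G gamma genes past the minimum had a higher mean in SHR, while under it 2 were higher and 4 lower. Of all genes past the minimum, 34.4% were higher. The share was 67.1% at 3 per 10000 or more, the level of Gng2, Gng3 and Gng10. The median log2 difference of the 6 was 0.37, and 1 gene, Gng3, was past the fold. The 13 genes summed to 15.2 per 10000 in Wistar and 21.9 in SHR, a change of 43.8%. Gamma subunits carry the lipid anchor of the beta-gamma pair. Gng2, a widely used partner of beta subunits, was at 5.33 per 10000 in Wistar and 7.32 in SHR. Gng3, which is typical of neurons, was at 4.69 per 10000 in Wistar against 7.16 in SHR, a change of 52.5% and a log2 difference of 0.52. Gng10 was at 3.03 per 10000 in Wistar against 4.54 in SHR, a change of 49.8%. Gng5 was at 1.52 per 10000 in Wistar against 2.19 in SHR, a change of 44.0%. These 4 genes held 95.8% of the G gamma sum in Wistar and 97.0% in SHR, and their shares within it moved by no more than a few percentage points. The share of Gng2 was 35.0% in Wistar and 33.5% in SHR, and that of Gng3 was 30.9% and 32.7%.

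Gng4 was at 0.446 per 10000 in Wistar against 0.455 in SHR, a change of 1.93%, and Gng12 at 0.105 and 0.133. Relative to the median gene, 4 of the 6 were past the fold in the direction of SHR, namely Gng2, Gng3, Gng10 and Gng5, beside 13.2% of all genes. That share covers all levels past the minimum. Among the 484 genes at 3 per 10000 or more, Gng3, Gng10 and Gng2 ranked 60, 80 and 148 by ratio. At least 182 of those 484 were past this fold, so nothing particular to the class is read from the count. The summed level of G gamma over that of G beta was 2.34 in Wistar and 2.66 in SHR. Under the minimum, Gng8 was at 0.0506 per 10000 in Wistar and 0.0572 in SHR. Gng7, a subunit of the striatum, was at 0.0138 and 0.00580, and Gng11, a subunit of endothelium and other tissues outside the nervous system, at 0.0115 and 0.00159. Gngt2 of cones and blood cells was at 0.00456 and 0.00488, Gng13 of taste and retinal cells at 0.00173 and 0.000802, and Gng14 at 0.00201 and 0.00146. Gngt1 of rods was listed at 0 in both. In the current RefSeq annotation the span of Gng3 overlaps that of Bscl2, which was at 0.806 per 10000 in Wistar against 0.704 in SHR, and the span of Gng5 overlaps that of Rpf1, at 0.147 and 0.191. Other members past the minimum overlap annotated genes too, such as Gng10 with Shoc1, and Gnas, Gnb1 and Rgs10 with noncoding RNA genes. How reads in such overlaps were assigned is not stated, so the means of genes with an overlap are uncertain to that extent.

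The RGS genes did not share 1 direction. Of the 9 past the minimum, 3 had a higher mean in SHR and 6 a lower one, beside 34.4% and 65.6% of all genes. The median log2 difference was -0.05, as over all genes. It turned to 0.0013 with the median log2 difference of all genes set to 0 and to 0.078 with a minimum of 1 per 10000. Past the fold, Rgs10 was higher and Rgs6 and Rgs9 were lower, beside 5.22% and 26.5% of all genes. Nothing particular to the class is read from these counts. The 20 genes summed to 13.9 per 10000 in Wistar and 16.2 in SHR, a change of 16.6%. Without Rgs10 the sums were 12.1 and 11.9, a change of -1.48%. Relative to the median gene, 2 of the 9 were past the fold, Rgs10 and Rgs17, both in the direction of SHR, beside 13.2% of all genes. Rgs6 and Rgs9 were no longer past it.

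Rgs10 belongs to the R12 family and acts on Gi/o subunits. Its level was 1.79 per 10000 in Wistar against 4.28 in SHR, a change of 139% and a log2 difference of 0.92. It ranked 900 among all genes in Wistar and 347 in SHR. Counted from the top, its log2 difference stood at rank 5 among the 7621 genes past the minimum and its ratio at rank 25. Its ratio of 2.39 stood at rank 3 among the 484 genes with an average of at least 3 per 10000. Rgs10 is also known from microglia and other immune cells. Of the 8 immune markers listed, 1, Ptprc, was higher in SHR, at 0.00388 per 10000 in Wistar against 0.00473. A further 6 were lower, and Cd3e was listed at 0 in both. The summed immune level was 1.23 per 10000 in Wistar against 0.394, and its part in the Rgs10 difference was not tested. The other R12 genes past or under the minimum were Rgs12, at 0.213 per 10000 in Wistar against 0.171 in SHR, and Rgs14, listed at 0.000870 in Wistar and 0 in SHR.

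The R4 family, small RGS proteins that act on Gi/o and Gq subunits, held the largest share of the RGS sum, 49.1% in Wistar and 39.5% in SHR. Rgs4 was the most abundant RGS gene in both libraries, at 5.30 per 10000 in Wistar against 4.91 in SHR, a change of -7.41%. Relative to the median gene its ratio was 1.07, so on the ratio scale its direction turned. The mean of Rgs4 was 2.96 times that of Rgs10 in Wistar and 1.15 times in SHR. Rgs3 was at 1.23 per 10000 in Wistar against 1.35 in SHR, a change of 10.0%. The other 8 R4 genes lay under the minimum, and 6 of them were above 0 in at least 1 library, all of them lower in SHR. Rgs2, which acts on Gq, was at 0.104 per 10000 in Wistar and 0.0854 in SHR, Rgs8 at 0.0650 and 0.0289, and Rgs16 at 0.0634 and 0.0106. Rgs1, a gene of lymphocytes and other immune cells, was at 0.0398 per 10000 in Wistar and 0.00379 in SHR. Rgs5 of pericytes and smooth muscle was listed at 0.00452 in Wistar and 0 in SHR, and Rgs18 of platelets at 0.000532 and 0. Rgs13 and Rgs21 were listed at 0 in both.

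The R7 family, whose members bind Gnb5 and act on Gi/o subunits in neurons, had lower means in SHR for all 3 members measured. Of all genes past the minimum, 65.6% were lower. The 3 members stood in the groups of the longest genes described below, where 16.4% of genes were higher in SHR. Nothing particular to the family is read from this direction. The R7 sum in SHR was 2.53 per 10000, a change of -15.8% against Wistar, while the ratio of the median gene was 0.863. Rgs7 hardly differed, at 1.81 per 10000 in Wistar and 1.80 in SHR. Rgs9, best known from the striatum and photoreceptors, was at 0.871 per 10000 in Wistar against 0.541 in SHR, a change of -37.9%. Rgs6 was at 0.316 per 10000 in Wistar against 0.185 in SHR, a change of -41.4%. The ratios to that of the median gene were 1.15 for Rgs7, whose direction thus turned, 0.719 for Rgs9 and 0.679 for Rgs6. The R7 sum was 42.2 times the mean of Gnb5 in Wistar and 39.8 times in SHR, on the scale of the mean per 10000.

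The RZ family, named for its action on Gnaz, was led by Rgs17, at 1.68 per 10000 in Wistar against 2.48 in SHR, a change of 47.4%. Rgs19 was at 0.244 per 10000 in Wistar against 0.200 in SHR, a change of -17.7%, and Rgs20, under the minimum, at 0.113 and 0.0675. Rgs22, an atypical member outside these families, was at 0.0206 per 10000 in Wistar and 0.0697 in SHR. It was the 1 RGS gene under the minimum with a higher mean in SHR, against 8 with a lower one. Over all RGS genes the R12 share of the sum was 14.5% in Wistar and 27.5% in SHR, and the R7 share was 21.6% and 15.6%.

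**Figure D3:**
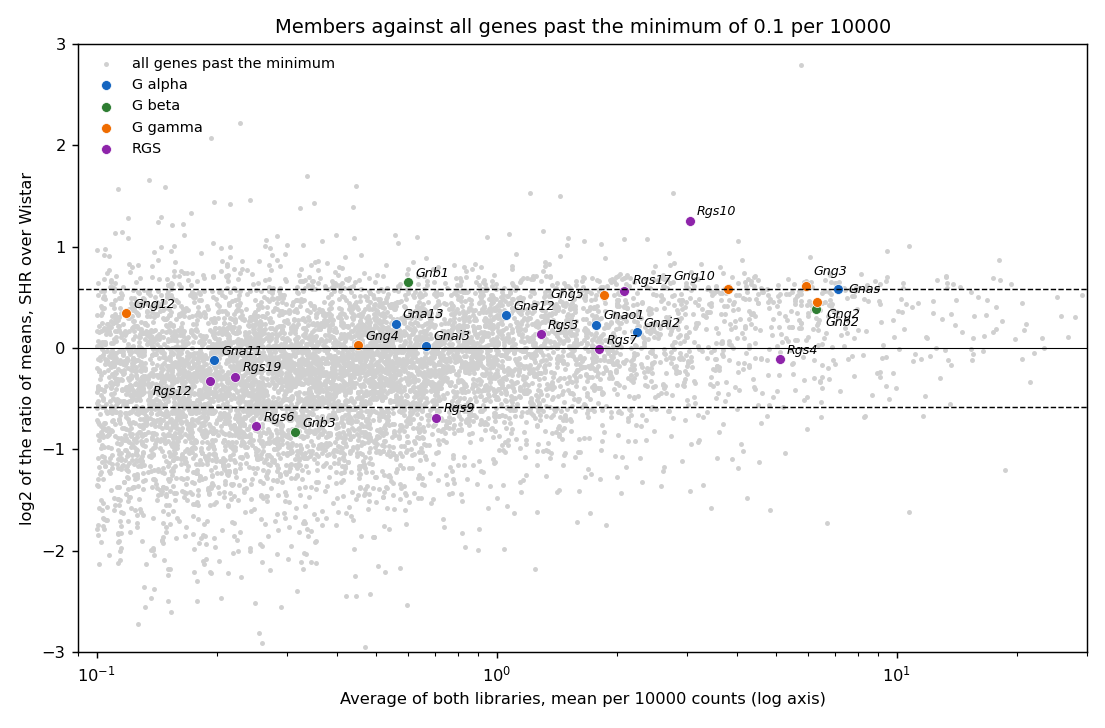
Log2 of the ratio of means, SHR over Wistar, against the average of both libraries (mean per 10000 counts, log axis) for the genes past the minimum (grey) and the 25 members (coloured by class), with dashed lines at a ratio of 1.5 in either direction and 39 genes outside the plotted range. Rgs10 lies clear of the upper line, Gnb1 and Gng3 just above it, and Gnb3, Rgs6 and Rgs9 below the lower one.

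The direction of a gene moved with its level across the whole transcriptome. Of the 484 genes with an average of at least 3 per 10000, 67.1% were higher in SHR (median log2 difference 0.21), and 16.3% were past the fold in that direction. The 7 members at this level were Gnas, Gnb2, Gng2, Gng3, Gng10, Rgs4 and Rgs10, and 6 of them were higher in SHR. Of the 1192 genes between 1 and 3 per 10000, 49.3% were higher, beside 6 of 7 members. Between 0.3 and 1 per 10000 it was 32.1% of the genes and 4 of 6 members. Between 0.1 and 0.3 it was 25.4% of the genes and 1 of 5 members.

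The direction also moved with the span of a gene, which was known for these data before the members were chosen. The genes past the minimum were ranked by their span in the GRCr8 assembly and cut into 10 equal groups, and all 25 members had one. In the 3 groups of the shortest genes 56.4% were higher in SHR, beside 4 of 7 members. In the 4 middle groups it was 29.9% of the genes and 4 of 5 members. In the 3 groups of the longest genes it was 16.4% of the genes and 9 of 13 members. The 9 were Gnas, Gnao1, Gna12, Gnb1, Gng2, Gng4, Gng12, Rgs17 and Rgs3. Gng3 stood in the group of the shortest genes, where 72.9% were higher. Rgs10 stood in group 7, where 23.9% were higher. The part of level and span in the differences of single members was not tested.

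**Figure D4:**
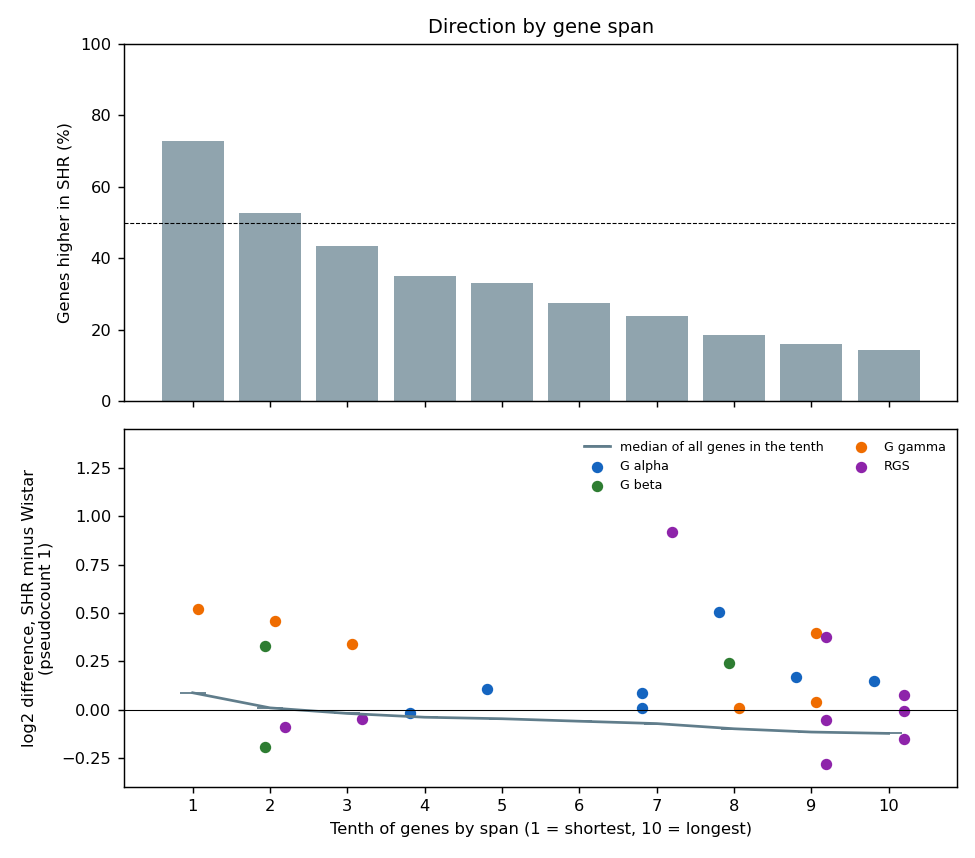
Upper panel, percent of genes past the minimum with a higher mean in SHR in each of 10 equal groups by gene span, from the shortest (1) to the longest (10), with bars starting at 0 and a dashed line at 50%. Lower panel, log2 difference of each member (pseudocount 1) in its group, coloured by class, with the median of all genes in the group as a line that runs from 0.09 to -0.12, while members such as Gnas and Rgs10 lie well above it.

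The partners of G proteins mostly had lower means in SHR, as did most genes. Of 36 genes on a list of chaperones, receptor kinases, arrestins, effectors and related proteins, 34 had a line and 15 passed the minimum, of which 13 were lower in SHR and 2 higher, beside 65.6% and 34.4% of all genes past the minimum. Past the fold, 5 of the 15 were lower and 1 was higher, beside 26.5% and 5.22% of all genes, and the median log2 difference was -0.13. Relative to the median gene, 2 were past the fold in the direction of Wistar, Grk3 and Arhgef1, and 1 in the direction of SHR, Arrb1, beside 17.3% and 13.2% of all genes. Nothing particular to the partners is read from these counts.

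Plcb4, a phospholipase C that Gq subunits activate, was the most abundant partner, at 5.82 per 10000 in Wistar against 3.66 in SHR, a change of -37.1%. It was far above Plcb1, at 0.694 and 0.523, and Plcb3, at 0.180 and 0.192. Plcb2, an enzyme of blood cells, was at 0.00170 per 10000 in Wistar and was listed at 0 in SHR. Arhgef1, an effector of Gna13, was at 0.720 per 10000 in Wistar against 0.310 in SHR, a change of -56.9%.

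Receptor kinases phosphorylate active receptors, which arrestins then bind. Grk6 was the highest kinase, at 0.717 per 10000 in Wistar and 0.529 in SHR. Grk3 was at 0.377 per 10000 in Wistar against 0.192 in SHR, a change of -49.1%, and Grk4 at 0.146 and 0.109. Arrb1 was at 0.125 per 10000 in Wistar against 0.239 in SHR, a change of 91.7%, and Arrb2, under the minimum, at 0.0645 and 0.0817.

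Ric8a, a chaperone of Gi, Gq and G13 alpha subunits, was at 1.32 per 10000 in Wistar against 1.12 in SHR, and Pdcl, which helps to assemble the beta-gamma pair, at 0.278 and 0.263. Gpsm1, which holds Gi alpha subunits in their GDP form, was at 0.495 per 10000 in Wistar against 0.325 in SHR, a change of -34.3%. Gpr158, a membrane partner of R7 proteins, was at 0.160 and 0.124. Among other proteins with an RGS-like domain, Snx14 was at 0.285 per 10000 in Wistar and 0.170 in SHR, past the fold, Snx13 at 0.184 and 0.139, and Akap10 at 0.144 and 0.102. The 4 subunits of the potassium channels that beta-gamma opens, Kcnj3, Kcnj5, Kcnj6 and Kcnj9, summed to 0.0598 per 10000 in Wistar and 0.0410 in SHR, with Kcnj6 listed at 0 in both.

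**Figure D5:**
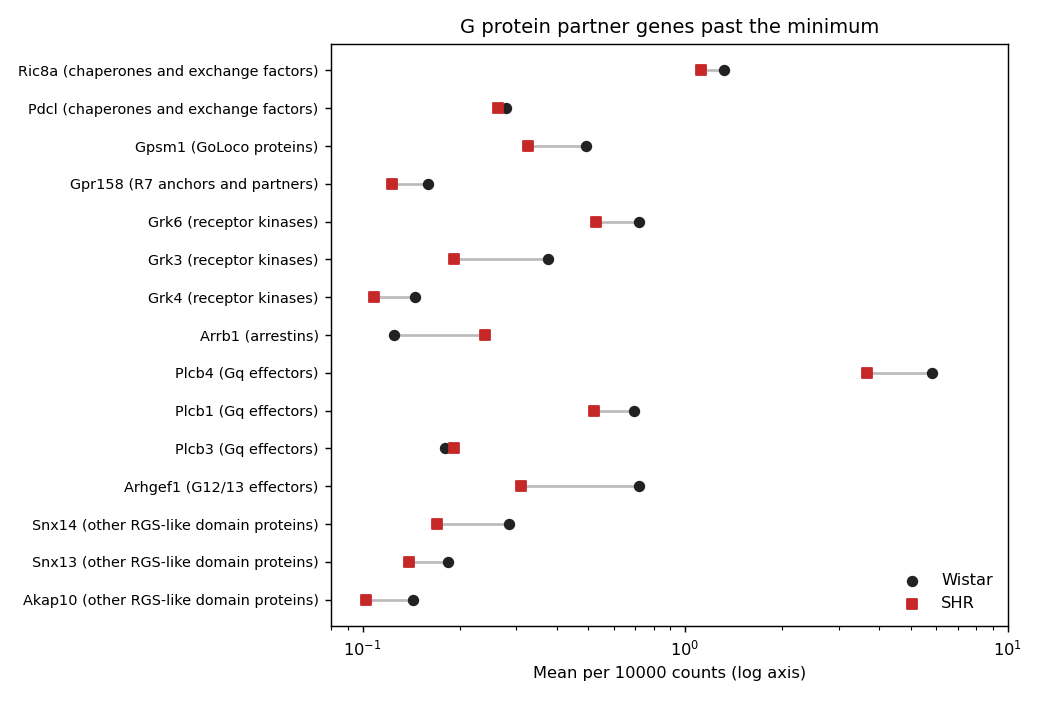
Mean per 10000 counts (log axis) of the 15 partner genes past the minimum in the Wistar library (black circles) and the SHR library (red squares), grouped by role, with 1 value per library and so no error bars. Arrb1 and Plcb3 lie further right in SHR and the other 13 further left, with the widest gap at Arhgef1.

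Of the members known mainly from other cell types, 12 were set apart as a list, which does not hold Gnb3, Gng7, Rgs9 or Rgs10, described above. The 12 were Rgs1, Rgs5, Rgs18, Gna15, Gngt2, Gng11, Gng13, Gnal and the 4 listed at 0 in both, Gnat1, Gnat2, Gnat3 and Gngt1. None of the 12 was above 0.0398 per 10000 in Wistar or above 0.00674 in SHR, and 7 were lower in SHR and 1 was higher. The list as planned also held Rgs9, which was left out of the 12. At 0.871 per 10000 in Wistar and 0.541 in SHR it lay far above these levels, so they hold for the 12 alone. The summed markers of smooth muscle and pericytes, 0.116 per 10000 in Wistar and 0.0720 in SHR, and of endothelium, 0.111 and 0.0754, were also lower in SHR, as were the immune markers given above. Their part in the differences of these members was not tested.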

How the data were processed

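Stellate ganglia of Wistar rats and SHRs were dissociated enzymatically and sequenced as 10x Genomics single cell 3' libraries, 1 per strain. The submitters' processing notes name Cell Ranger 3.0.2, Seurat 3, DESeq2 and build Rnor_6.0. The authors clustered the cells and deposited, for the sympathetic neurons of each library, a natural log value for each gene, ln(1 + x), where x is its average per 10000 counts. Undoing the log, the 25399 lines sum to 10000 in each library. Filters on cells, doublet removal, the number of neurons and their depth are not given in the sources used here, so no counting error can be stated. A further deposited table holds the authors' own fold changes, p-values and shares of cells detected. None of it was used.

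Leaving out 4 lines whose names repeat gave 25395 genes. Means, ratios, percent changes and log2 differences (pseudocount 1) were computed with Python 3.11.15, NumPy 2.4.6 and pandas 2.3.3, and the code was tested on simulated data. The settings were a minimum average of 0.1 per 10000 and a fold of 1.5. All members past the minimum are named, together with the highest ones under it, those above 0 in 1 library and those known from other cell types. Medians are set beside the same median over all genes past the minimum. Spans come from RefSeq (GRCr8) for 7291 of 7621 genes (95.7%) and served as ranks. The members, the lists and the named genes were chosen with earlier results of these data known. Alternatives were other pseudocounts, minimums, folds and scalings, and a centring. The centring took the median log2 difference for medians and signs, and the ratio of the median gene for counts past the fold.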

Additional observations from a re-analysis of the deposited data

How the results depend on the processing

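No paired analysis was possible because the design holds 1 library of either strain, and leaving out a replicate was not possible for the same reason. Leaving the markers of other cell types out of the total moved none of the medians, sums or counts by as much as 0.005 in log2 or 0.5 percentage points. The median log2 differences of the G alpha, G beta, G gamma and RGS genes were 0.20, 0.38, 0.48 and -0.11 with a pseudocount of 0.1, and 0.028, 0.036, 0.12 and -0.0061 with a pseudocount of 10, where the size follows from the pseudocount. They were 0.021, 0.0045, 0.0088 and -0.037 when every gene above 0 was kept. Under a minimum of 1 per 10000 they were 0.16, 0.33, 0.43 and 0.078, over 4, 1, 4 and 5 genes, so the direction of the RGS median turned as its lower members dropped out. With the median log2 difference of all genes, -0.05, set to 0 they were 0.16, 0.29, 0.42 and 0.0013, so the RGS median also turned there. With mitochondrial and ribosomal protein genes left out of the total they were 0.14, 0.15, 0.42 and -0.052, over 7, 4, 6 and 11 genes as more then passed the minimum, and the sums changed by 34.5%, 30.4%, 47.8% and 19.9% for G alpha, G beta, G gamma and RGS. With the added line Gnas.1, which was added once the values had been seen, the G alpha sum changed by 39.1%.

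Counts past the fold depended on the settings. When every gene above 0 was kept there were 2 lower and 2 higher of 13 G alpha genes and 3 lower of 12 G gamma genes. Of 18 RGS genes, 6 were then lower and 2 higher. A gene listed at 0 in 1 library has no ratio and could not be called, which holds for Rgs5, Rgs14 and Rgs18. The same applies to the counts over all genes. With a minimum of 1 per 10000 there were 0 lower and 0 higher G beta genes and 0 lower RGS genes. With a fold of 2 there were 0 lower and 0 higher G beta genes, 0 higher G gamma genes and 0 lower RGS genes, and Rgs10 alone was left. Without mitochondrial and ribosomal protein genes there were 1 higher G alpha gene, 2 higher G gamma genes, and 3 lower and 2 higher RGS genes. Relative to the ratio of the median gene there were 1, 2, 4 and 2 higher G alpha, G beta, G gamma and RGS genes and 0 lower RGS genes. Over all genes, 2021 of 7621 were past the fold lower and 398 higher as reported, and 1320 and 1005 relative to the median gene. The counts were 5108 and 1650 of 16389 when every gene above 0 was kept, and 195 and 172 of 1676 under a minimum of 1. They were 861 and 58 of 7621 with a fold of 2, and 2044 and 543 of 8141 without mitochondrial and ribosomal protein genes. The sign of the log2 difference turned for 1 of 25 members, Rgs7, without mitochondrial and ribosomal protein genes. It turned for 4, Rgs7, Rgs12, Rgs19 and Gna11, with the median log2 difference set to 0. Relative to the ratio of the median gene, Rgs7, Gna11 and Rgs4 turned, while Rgs12 at 0.926 and Rgs19 at 0.953 did not. Depth is unknown, so the reliability of a low mean cannot be stated.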
